A study of Rattus norvegicus with 10 samples.

Results

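The glands described here are the 5 of 10 rat lacrimal glands, in a microarray study of cutting the gland's parasympathetic nerve supply, in which the secretoglobin gene Scgb2a1 was read at a high level. They were chosen from the measured values: a gland was kept if its Scgb2a1 probe set read above 1000 intensity units, and the question was how denervated and control glands differed once only such glands were set side by side. The kept glands were denervated 3 and 4, contralateral 2 and 3, and the single unoperated gland. The other 5, called Scgb2a1-poor here, were denervated 1, 2 and 5, contralateral 1 and the sham-operated gland.

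Total RNA of each gland was hybridised to 1 Affymetrix rat array, so every value is a fluorescence intensity of a probe set, a group of short probes for 1 transcript. Denervated glands were taken 7 days after the greater superficial petrosal nerve was cut, and contralateral glands are controls taken at the same 7 days. The titles call these controls contralateral, whereas their descriptions place them on the operated side, and the titles were followed. Strain, sex, age and genotype were not given in the sources used here. Nothing says that each gland is from another animal, and the p-values then cover the spread among these arrays alone, part of which may be technical. The unoperated gland and the sham gland were 1 each.

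The greater superficial petrosal nerve carries the parasympathetic fibres that reach the lacrimal gland by way of the pterygopalatine ganglion. Acetylcholine and vasoactive intestinal peptide from these fibres drive acinar cells to release stored protein, water and ions. Acinar cells are filled with rough endoplasmic reticulum (ER), where secretory proteins are threaded in, folded and given their sugars, so the genes of that machinery were followed beside the secretory products, the receptors, and the genes of immune and supporting cells.

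In Scgb2a1 itself the kept glands read 233234, 360033 and 87856 in contralateral 2, contralateral 3 and the unoperated gland and 74352 and 111400 in denervated 3 and 4, and the 5 others read 72.0 to 154.4. The lowest kept gland was thus at 74352 and the highest gland left out at 154.4, below the intensity of 156.2 that served as the floor for all values. These values chose the glands and are given as a description with no test. Of the other acinar products, prolactin-induced protein Pip read 292344, 266933 and 132400 in the control glands and 143791 and 104315 in the denervated glands. The acinar transcription factor Bhlha15 read 40756, 46468 and 26052 in the control glands and 39550 and 26611 in the denervated glands. Both were thus read in all 5 glands.

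**Figure D1:**
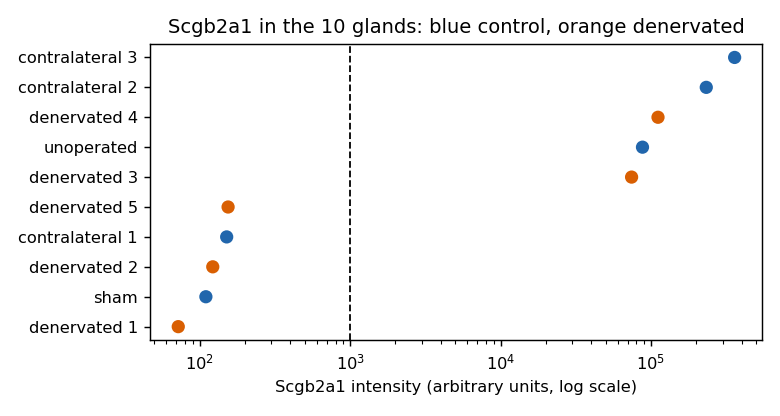
Scgb2a1 intensity (log axis, arbitrary units) in each of the 10 glands, with the value of 1000 that divided them as a dashed line and 1 point per array. The 5 glands above the line read 74352 to 360033 and the 5 below it 72.0 to 154.4; blue points are control glands and orange points denervated glands.

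Denervated 3 and 4 were compared with the 3 controls on log2 intensity with limma, and no probe set of the 6118 tested passed an adjusted p of 0.05; the smallest adjusted p was 0.186. At an unadjusted p under 0.05, 543 probe sets differed, which is 8.88% of those tested: 260 (4.25%) were higher and 283 (4.63%) lower in the denervated glands. Both denervated glands lay above all 3 controls in 663 probe sets (10.8%) and below all 3 in 938 (15.3%). With 2 glands against 3, an exact permutation test of a single gene has only 10 splits and cannot give a two-sided p below 0.2. Everything below is therefore a description of size and order in these 5 glands, with the adjusted p of the fit across all probe sets where one is printed; none passed. The deposited scaling sets the zero of each comparison: the median difference of the 3624 genes was -0.08 with it and 0.18 when each array was brought to the same median.

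Some array traits moved with the groups. The percentage of probe sets at the floor was 24.4% and 26.5% in denervated 3 and 4 and 17.9% to 22.5% in the controls. The array medians were 652.1 and 553.5 against 672.7 to 809.6. The hexokinase probe set for the 3' end, over that for the 5' end, had a log2 ratio of 1.58 and 1.47 against -0.23 to 0.87. For actin this ratio overlapped, at 0.67 and 0.86 against 0.65 to 1.14. For Gapdh it was lower in the denervated glands, at 0.16 and 0.0081 against 0.23 to 0.35. The part of these traits in the results was not tested.

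The genes first by p in each direction are described one by one. Ceruloplasmin Cp, a copper-carrying acute-phase protein, read 60266, 53547 and 48998 in contralateral 2, contralateral 3 and the unoperated gland and 124295 and 155431 in denervated 3 and 4. The lower of the denervated glands was above the highest control by a wide margin, and the difference was 1.36 ± 0.23 (log2, ± SE, n = 2 and 3), 2.57-fold higher, adjusted p = 0.186. Complement C3, the central component on which all complement pathways meet, read 11730, 9225 and 5360 in contralateral 2, contralateral 3 and the unoperated gland and 27193 and 30784 in denervated 3 and 4. The groups did not overlap, and the unoperated gland was lowest; the log2 difference was 1.79 ± 0.31, adjusted p = 0.186.

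Other genes on the high side encode products of secretory epithelium, phagocytes or lysosomes. Apolipoprotein E, Apoe, which carries lipid and is made in quantity by macrophages, read 26176, 26868 and 14276 in the control glands and 59805 and 58460 in the denervated glands, a log2 difference of 1.45 ± 0.29. Galectin-3, Lgals3, a sugar-binding protein of macrophages and epithelia, read 16258, 15299 and 13401 in the control glands and 29053 and 36361 in the denervated glands, a difference of 1.12 ± 0.21. In both genes the groups did not overlap and the unoperated gland was lowest. The lysosomal protease cathepsin B, Ctsb, was higher by 1.14 ± 0.22 and the protease inhibitor cystatin C, Cst3, by 1.34 ± 0.27. Dmbt1, a scavenger-receptor protein secreted onto mucosal surfaces, read 10525, 4521 and 5159 in the control glands and 21979 and 21357 in the denervated glands, a difference of 1.79 ± 0.34, and its second probe set gave 1.07. Annexin A1, Anxa1, a calcium-dependent lipid-binding protein that restrains inflammation, read 5431, 5665 and 5604 in the control glands and 11010 and 22579 in the denervated glands, so that denervated 4 was above denervated 3 and the 3 controls were nearly alike.

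On the low side the widest gap was in Dnase1, the secreted nuclease, which read 1202, 5360 and 21433 in contralateral 2, contralateral 3 and the unoperated gland and 228 and 178 in denervated 3 and 4. Both denervated glands were below all controls, and the controls themselves spanned a wide range with the unoperated gland highest; the difference was -4.68 ± 0.93 and a second probe set gave -2.51 ± 0.53. Smr3a, a submaxillary-type androgen-regulated secretory protein, read 181054, 229314 and 192415 in contralateral 2, contralateral 3 and the unoperated gland and 85972 and 51240 in denervated 3 and 4. Controls were close to each other and both denervated glands were lower, 3.01-fold lower by the fitted means (-1.59 ± 0.28, adjusted p = 0.186). P22k15, a cystatin-related secretory protein, differed by -1.33, and its probe set is of a type that can read several members of a family. Among genes with lower readings, the prostaglandin carrier Slco2a1 read 1322, 1193 and 864 in the control glands and 134 and 167 in the denervated glands. Denervated 3 was below the floor of 156.2 in this gene and denervated 4 just above it. The Src-family kinase Fgr, a gene of myeloid cells, read 1204, 1416 and 1105 in the control glands and 216 and 224 in the denervated glands, and Mettl7b and the olfactory receptor gene Or2z2 differed by -2.85 ± 0.59 and -2.66 ± 0.65.

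**Figure D2:**
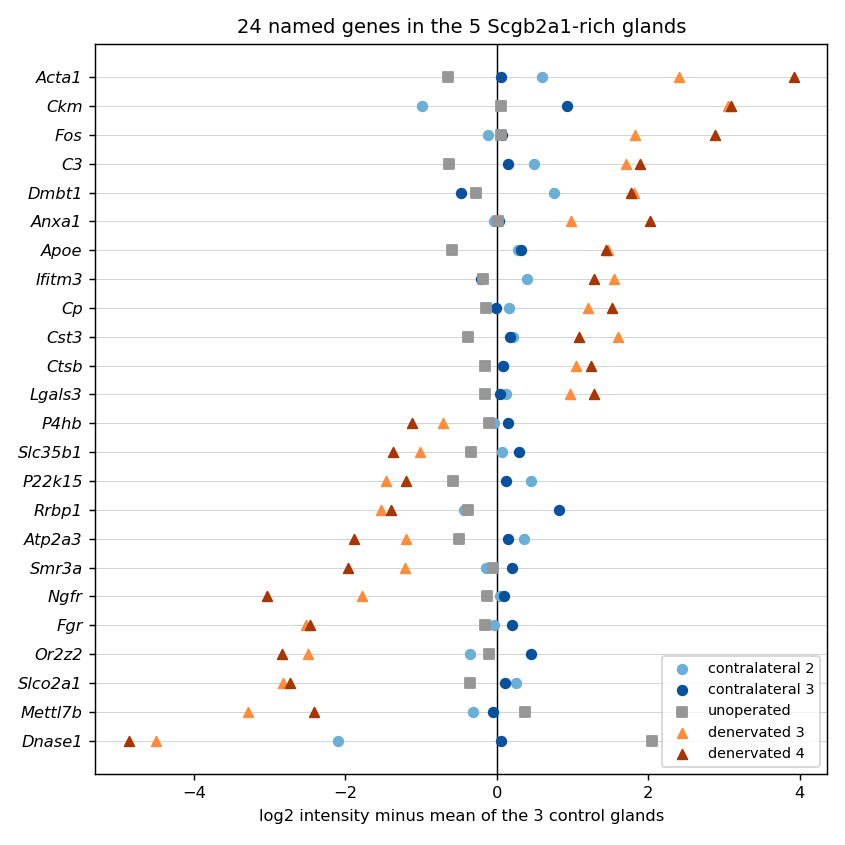
For the 24 genes with the smallest unadjusted p (12 in each direction), log2 intensity minus the mean of the 3 control glands is shown for each of the 5 glands. In each gene both denervated glands (triangles) lie on one side of all 3 control glands (circles and square); Dnase1 has the widest spread among its controls.

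Of 32 tear and lacrimal secretory genes tested, Scgb2a1 left out, 13 were higher and 5 lower with an unadjusted p below 0.05, against 151 and 170 of all 3624 genes, and the list's median was -0.09. That median turned to 0.20 with median scaling and to 0.04 without contralateral 2. The lower genes include Smr3a, Dnase1 and the kallikrein Klk1 (-2.55 ± 0.71), which was at or below the floor in both denervated glands, so its difference understates the gap; a second Klk1 probe set gave -0.74 with overlapping groups. The higher genes include clusterin Clu, a secreted chaperone, at 183388, 112384 and 87526 in the control glands and 301996 and 212579 in the denervated glands. Lipocalin Lcn2, an iron-siderophore binder, read 36246, 59525 and 33592 in the control glands and 62949 and 113652 in the denervated glands. Surfactant protein Sftpd, a collectin, read 13169, 9897 and 5724 in the control glands and 19085 and 18795 in the denervated glands. The groups did not overlap in these 3 genes. Csap1, a common salivary protein, was higher by 0.95 ± 0.29.

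The machinery of the rough ER was on the low side. Of 17 genes of ER translocation and glycosylation, 15 were lower in the denervated glands, where 44.8% of all probe sets tested were higher. Their median was -0.48 beside -0.08 for all genes. At an unadjusted p below 0.05, 5 were lower and 0 higher, against 170 lower and 151 higher among all 3624 genes. In 9 (52.9%) both denervated glands were below all controls, against 16.4% of all genes. The median was -0.32 without contralateral 3 and -0.22 with median scaling. Rrbp1, which gives rough ER its ribosome-binding surface, read 9896, 23589 and 10260 in contralateral 2, contralateral 3 and the unoperated gland and 4624 and 5096 in denervated 3 and 4. Contralateral 3 was high, the other controls were near each other, and both denervated glands were below all of them (-1.46 ± 0.36, adjusted p = 0.262). Slc35b1, the carrier that brings ATP into the ER, read 22116, 25835 and 16690 in the control glands and 10476 and 8224 in the denervated glands, a difference of -1.19 ± 0.25. Dad1, a subunit of the complex that attaches sugar chains, read 100241, 113468 and 98357 in the control glands and 61886 and 55284 in the denervated glands, a difference of -0.83 ± 0.22. Of the other subunits of that complex, Ddost differed by -0.82 ± 0.31, Rpn2 by -0.60 ± 0.28 and Rpn1 by -0.49 ± 0.24, and the translocation channel Sec61a1 by -0.48 ± 0.22.

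Of 20 ER chaperones and folding enzymes, 16 were lower, with a median of -0.67. At an unadjusted p below 0.05, 5 were lower and 0 higher, against 170 lower and 151 higher among all 3624 genes. In 6 of the 20 both denervated glands were below all controls, against 16.4% of all genes. The median was -0.40 without contralateral 3 and -0.41 with median scaling. Protein disulfide isomerase P4hb, which makes disulfide bonds, read 18683, 21208 and 17967 in the control glands and 11770 and 8838 in the denervated glands, a difference of -0.92 ± 0.22. Calreticulin, Calr, the lectin chaperone of new glycoproteins, read 139702, 279722 and 69007 in contralateral 2, contralateral 3 and the unoperated gland and 65608 and 55762 in denervated 3 and 4. Here contralateral 3 was far above every other gland and the unoperated gland was just above the denervated pair, so the difference of -1.20 ± 0.46 rests largely on the contralateral glands. BiP, Hspa5, the main ER chaperone, read 30435, 72776 and 19932 in the control glands and 16404 and 21306 in the denervated glands. Its relative Hsp90b1 read 27864, 78338 and 16190 in the control glands and 16602 and 15765 in the denervated glands. Contralateral 3 was again highest, and the unoperated gland lay among the denervated readings. Against the 2 contralateral glands alone the differences were -1.71 ± 0.34 for Calr, -1.33 ± 0.38 for Hspa5 and -1.53 ± 0.42 for Hsp90b1. Another Hspa5 probe set, of a type with relaxed design rules, gave 0.07 ± 0.96. Without Scgb2a1, which chose the glands, the 5 acinar markers on the array summed to 357036, 333598 and 185606 in contralateral 2, contralateral 3 and the unoperated gland and to 209386 and 147192 in denervated 3 and 4. The unoperated gland lay between the denervated pair. Pip, which differed by -0.83, was the largest part of each sum. Of the other markers, Bhlha15, Aqp5 and Rab3d differed by -0.18, -0.22 and -0.17, and Scgb1c1 by 0.11. The part of acinar content in the ER readings was not tested.

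Promoters of these chaperones are shown because an ER stress response element, CCAAT and CCACG set apart by 9 free letters and searched on both strands, is known to drive them together. The reference rat sequence GRCr8, as RefSeq gives it, was searched over the 250 bases before each gene's start. The element was in 5 of the 18 chaperone promoters found (27.8%) and in 0 of 15 of the translocation and glycosylation genes. It was in 6 of 2989 promoters of genes tested (0.201%) and in 21 of 27457 in all (0.0765%). Presence and size did not always go together: Canx had the element and differed by -0.31, whereas Pdia4 lacked it and differed by -1.59. The windows are Calr at chr19:40213117-40213366 (plus strand), Hsp90b1 at chr7:23012294-23012543 (minus strand) and Hspa5 at chr3:38452766-38453015 (plus strand), read 5′ to 3′ toward the gene with the element in capitals. A match is a description of these letters only.
Calr: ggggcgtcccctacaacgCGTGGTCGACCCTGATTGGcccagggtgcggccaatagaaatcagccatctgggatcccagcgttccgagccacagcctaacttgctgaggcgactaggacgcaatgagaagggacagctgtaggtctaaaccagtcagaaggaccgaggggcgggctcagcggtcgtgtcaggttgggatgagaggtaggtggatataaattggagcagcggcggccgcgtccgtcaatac
Hsp90b1: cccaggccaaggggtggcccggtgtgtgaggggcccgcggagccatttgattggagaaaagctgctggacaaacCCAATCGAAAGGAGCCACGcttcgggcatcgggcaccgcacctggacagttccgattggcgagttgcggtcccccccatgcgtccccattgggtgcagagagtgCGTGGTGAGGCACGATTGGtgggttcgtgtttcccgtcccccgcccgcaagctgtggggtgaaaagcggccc
Hspa5: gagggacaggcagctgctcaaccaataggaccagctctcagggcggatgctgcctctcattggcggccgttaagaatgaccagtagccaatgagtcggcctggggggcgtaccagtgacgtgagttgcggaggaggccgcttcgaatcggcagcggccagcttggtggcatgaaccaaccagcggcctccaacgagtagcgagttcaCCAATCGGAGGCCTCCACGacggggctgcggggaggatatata

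Among 57 genes of exocytosis and vesicle traffic 39 were lower, with a median of -0.13 that turned to 0.11 with median scaling. In 16 (28.1%) both denervated glands were below all controls, against 16.4% of all genes. At an unadjusted p below 0.05, 3 were lower and 1 higher, against 170 lower and 151 higher among all 3624 genes. The Golgi fusion protein Stx5 read 8075, 6852 and 7087 in the control glands and 4828 and 3991 in the denervated glands. The cargo receptor Tmed10 read 89702, 101672 and 73906 in the control glands and 59021 and 51288 in the denervated glands. Rab12 was the 1 gene of this list higher with an unadjusted p below 0.05 (2.68 ± 0.79), and 2 of its controls were below the floor. Rab3d, the GTPase of lacrimal secretory granules, read 7384, 7758 and 7428 in the control glands and 7258 and 6185 in the denervated glands; both denervated glands were below the controls, by less than the error (-0.17 ± 0.23, 95% interval -0.67 to 0.33; 0.10 with median scaling).

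Interferon-response and antigen-presentation genes were higher. In the list of MHC class I and interferon-response genes 26 of 27 were higher, and their median was 0.86. At an unadjusted p below 0.05, 12 were higher and 0 lower, against 151 and 170 of all 3624 genes. In 15 (55.6%) both denervated glands were above all 3 controls, against 10.4% of all genes. Ifitm3, an interferon-induced membrane protein that blocks virus entry, read 14399, 9455 and 9574 in contralateral 2, contralateral 3 and the unoperated gland and 32023 and 26481 in denervated 3 and 4. The groups did not overlap, and the difference was 1.41 ± 0.25, adjusted p = 0.186. Beta-2 microglobulin, B2m, the invariant chain of class I molecules, read 94297, 82628 and 70372 in the control glands and 155864 and 141234 in the denervated glands, a difference of 0.86 ± 0.23.

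The genes that prepare peptides for class I lay on the same side. Psmb8 and Psmb9, catalytic subunits of the immunoproteasome, differed by 0.90 ± 0.23 and 0.91 ± 0.38, and its activator subunits Psme1 and Psme2 by 0.76 ± 0.22 and 0.90 ± 0.30. Tap1, a chain of the peptide transporter into the ER, differed by 0.81 ± 0.36. The class I gene RT1-S3 read 11392, 7416 and 15903 in the control glands and 40669 and 17709 in the denervated glands; its sequence is close to that of other class I genes, which its probes may also read. Mx1, an interferon-induced GTPase against viruses, read 269, 470 and 223 in the control glands and 1797 and 735 in the denervated glands. Irf1, a transcription factor of the same response, read 4054, 4119 and 6106 in the control glands and 7120 and 12933 in the denervated glands. Of 10 class II genes 8 were higher (median 0.66, 0.34 without denervated 3 and 0.36 without contralateral 3). At an unadjusted p under 0.05, 3 were higher and 0 lower, against 151 and 170 of all 3624 genes. The 3 include RT1-DMb (1.74 ± 0.49) and cathepsin S, Ctss (0.91 ± 0.23).

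The interferon-stimulated response element, GAAA and GAAA set apart by 2 free letters on either strand, was in 12 of the 25 promoters found for this list (48.0%), against 84 of 2989 promoters of genes tested (2.81%) and 902 of 27457 in all (3.29%), over the same 250 bases. Promoters of Ifitm3 at chr1:205541759-205542008 (minus strand), B2m at chr3:129549080-129549329 (plus strand) and RT1-S3 at chr20:2675278-2675527 (plus strand) are given, with the element in capitals, for 3 of the genes described above. The element also stood in promoters of Oas1a and Rsad2, whose differences were 0.11 and 0.11, so members with it differed widely in size.
Ifitm3: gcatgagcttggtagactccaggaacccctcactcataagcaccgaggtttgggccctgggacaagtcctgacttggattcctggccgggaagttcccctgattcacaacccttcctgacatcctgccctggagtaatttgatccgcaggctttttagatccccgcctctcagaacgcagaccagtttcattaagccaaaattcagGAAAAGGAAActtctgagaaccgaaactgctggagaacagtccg
B2m: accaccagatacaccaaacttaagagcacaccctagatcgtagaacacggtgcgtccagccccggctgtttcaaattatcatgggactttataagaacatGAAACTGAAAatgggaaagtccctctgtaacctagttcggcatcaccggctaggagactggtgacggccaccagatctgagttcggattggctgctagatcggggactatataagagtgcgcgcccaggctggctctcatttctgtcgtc
RT1-S3: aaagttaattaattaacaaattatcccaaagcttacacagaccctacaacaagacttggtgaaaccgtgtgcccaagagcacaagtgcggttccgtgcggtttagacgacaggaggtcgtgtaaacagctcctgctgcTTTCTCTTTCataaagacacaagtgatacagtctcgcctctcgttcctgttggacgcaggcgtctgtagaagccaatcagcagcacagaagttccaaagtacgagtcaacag

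Macrophage genes were mostly higher, and T cell genes were not. Of 24 macrophage and myeloid genes 16 were higher, with a median of 0.59; 9 were higher and 0 lower with an unadjusted p below 0.05, and 11 (45.8%) were above all controls, against 151 higher calls among the 3624 genes and 10.4% of all genes above all controls. C1qb, the complement chain that macrophages make, read 4124, 4820 and 2831 in the control glands and 10661 and 6673 in the denervated glands. Osteopontin Spp1, a secreted matrix protein of activated macrophages, read 2951, 2644 and 746 in the control glands and 4830 and 12266 in the denervated glands. Aif1, a macrophage actin-binding protein, read 519, 158 and 108 in the control glands and 1044 and 774 in the denervated glands. All 3 were above every control in both denervated glands. The 5 defining macrophage markers summed to 28046 to 46924 in the controls and to 55661 and 60747 in denervated 3 and 4, 4 of them above all controls, whereas the growth-factor receptor Csf1r read 229, 443 and 247 in the control glands and 281 and 173 in the denervated glands. In whole-gland RNA, more cells of a type and more RNA per cell cannot be told apart.

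Of 14 complement and coagulation genes 11 were higher (median 0.63). Calls at an unadjusted p under 0.05 were 5 higher and 0 lower, against 151 and 170 of all 3624 genes. Without contralateral 3 the median was 0.22. Beside C3, the higher calls were C1r and C1s, the proteases that open the classical pathway (1.42 ± 0.37 and 1.16 ± 0.31). The others were their inhibitor Serping1 (1.35 ± 0.39) and factor D, Cfd (1.16 ± 0.38). T and natural killer cell genes had a median of -0.56 over 11 genes, with 0 in either direction at an unadjusted p under 0.05. That median was -0.25 without denervated 4, -0.35 without contralateral 2 and 0.0047 over the 7 genes left by the stricter filter. The 5 T cell markers summed to 3092 to 6483 in the controls and to 4941 and 4071 in the denervated glands, within the control range. Cd79b, the 1 of 6 listed B cell markers found on the array, read 648, 763 and 355 in the control glands and 31.3 and 97.8 in the denervated glands, below the floor in both denervated glands.

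**Figure D3:**
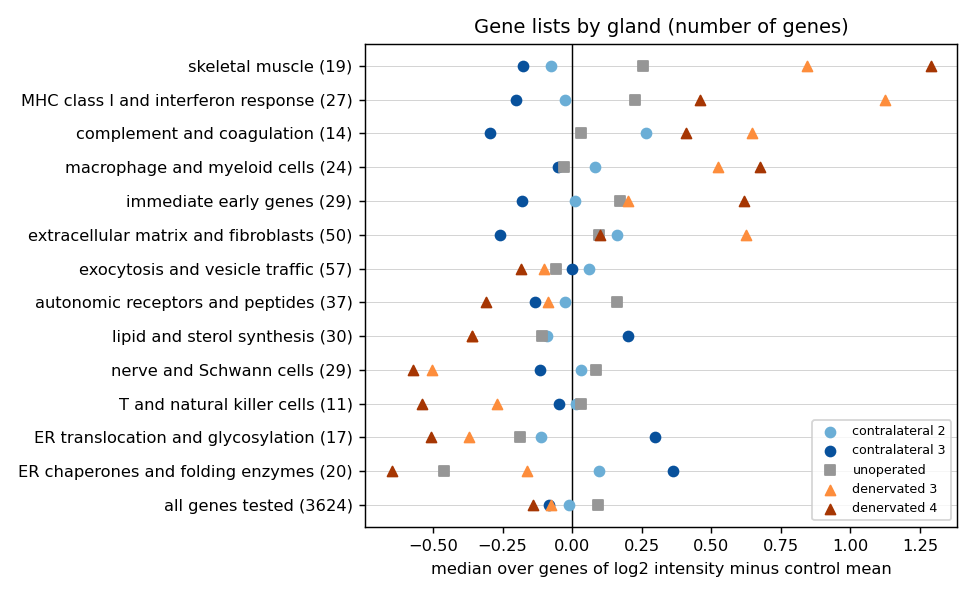
Each point is the mean, over the genes of a list, of log2 intensity minus the mean of the 3 controls in 1 gland. The axis title says median, but the points are means, unlike the list medians in the text. The number of genes is in brackets and the bottom line is all 3624 genes. Denervated glands (triangles) lie right of the controls in skeletal muscle, interferon, complement, macrophage and immediate early genes, and left of them in ER translocation, lipid and sterol, nerve, T cell and exocytosis genes, while in ER chaperones the unoperated gland lies between the denervated pair.

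Matrix genes were higher, unevenly. Of 50 genes 35 were higher (median 0.32). At an unadjusted p below 0.05, 10 were higher and 2 lower, against 151 and 170 of all 3624 genes. Without denervated 3 the median was 0.12, without denervated 4 it was 0.54 and without contralateral 2 it was 0.48; with median scaling it was 0.57. Timp2, an inhibitor of matrix proteases, read 4082, 2405 and 2506 in the control glands and 8880 and 6682 in the denervated glands. Decorin Dcn, a collagen-binding proteoglycan, read 36017, 38659 and 29533 in the control glands and 74868 and 54727 in the denervated glands; in both genes the groups did not overlap. Collagen Col1a1 read 11618, 1991 and 9030 in the control glands and 33491 and 10768 in the denervated glands. Col3a1 read 3908, 1307 and 2976 in the control glands and 12356 and 3430 in the denervated glands, with denervated 3 far above and denervated 4 among the controls. The 5 fibroblast markers on the array summed to 44422 to 54431 in the controls and to 128232 and 73394 in denervated 3 and 4; their part in the matrix readings was not tested. The 2 lower genes were tenascin Tnc (-1.11 ± 0.42) and elastin Eln (-1.16 ± 0.51).

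Immediate early genes, which cells switch on within minutes of a stimulus, were higher in 22 of 29 (median 0.52). At an unadjusted p below 0.05, 6 were higher and 0 lower, against 151 and 170 of all 3624 genes. Fos read 746, 843 and 837 in contralateral 2, contralateral 3 and the unoperated gland and 2862 and 5921 in denervated 3 and 4. The controls were nearly equal and both denervated glands higher, denervated 4 most (2.35 ± 0.43); 2 other Fos probe sets gave 1.56 and 1.43. Egr1 read 7081, 1732 and 3403 in the control glands and 8240 and 18408 in the denervated glands. Dusp1, a phosphatase that turns off MAP kinases, read 6818, 3557 and 6487 in the control glands and 9058 and 15541 in the denervated glands. In both genes the denervated glands were above all controls and denervated 4 was highest.

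Lipid and sterol synthesis was lower in 22 of 30 genes (median -0.46); 5 were lower and 0 higher with an unadjusted p below 0.05, and 13 (43.3%) were below all controls, against 170 lower calls among the 3624 genes and 16.4% of all genes below all controls. The median was -0.24 without denervated 3, -0.30 without contralateral 3 and -0.20 with median scaling. Fatty acid synthase Fasn read 4808, 3495 and 4401 in the control glands and 2498 and 1729 in the denervated glands. Fdps, which makes farnesyl diphosphate, read 12762, 33912 and 7220 in the control glands and 4814 and 4611 in the denervated glands, with contralateral 3 well above the rest. Cyp51, a sterol demethylase, read 2284, 2760 and 2388 in the control glands and 1285 and 1010 in the denervated glands, a gap with little spread among the controls (-1.12 ± 0.36). In the glutathione and antioxidant list 28 of 42 genes were higher (median 0.26, 0.15 without the unoperated gland). At an unadjusted p below 0.05, 5 were higher and 3 lower, against 151 and 170 of all 3624 genes. Gpx2, a glutathione peroxidase of epithelia, read 3372, 3220 and 3290 in the control glands and 9142 and 6307 in the denervated glands and Mgst1 at 1.24 ± 0.42.

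Among autonomic receptors and peptides, many of them not for the acetylcholine and VIP of the cut nerve, the groups mostly overlapped. Of 37 autonomic receptor and peptide genes 26 were lower, with a median of -0.22 that became 0.04 with median scaling. At an unadjusted p under 0.05, 0 were higher and 1 lower, against 151 and 170 of all 3624 genes. The muscarinic receptor Chrm3, the main acetylcholine receptor of lacrimal acini, read 5387, 3607 and 4098 in contralateral 2, contralateral 3 and the unoperated gland and 4372 and 4309 in denervated 3 and 4. The groups overlapped, and the difference was 0.01 ± 0.28 (95% interval -0.60 to 0.63); a dimmer probe set gave 0.84 ± 0.83. Chrm1 differed by -0.17 ± 0.53, Chrm2 by -0.94 ± 0.59, the adrenergic receptor Adra1a by 0.75 ± 0.76, and the VIP receptor Vipr1 by -0.60 ± 0.66 and 0.55 ± 0.87 in its 2 probe sets. The intervals of these receptors spanned 0, for Chrm2 from -2.26 to 0.38 and for Adra1a from -0.93 to 2.44. The gene that passed was Penk, the enkephalin precursor, at 1039, 1286 and 1115 in the control glands and 533 and 211 in the denervated glands.

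With an unadjusted p below 0.05, 151 of all 3624 genes were higher and 170 lower. Among 48 genes of calcium and cyclic AMP signalling these counts were 2 and 2 (median -0.07, 0.17 with median scaling). Among 30 of ion and water transport they were 0 and 2 (median -0.23, 0.04). Both medians also turned when 1 gland was left out, to 0.03 without denervated 4 and to 0.04 without denervated 3. Atp2a3, a calcium pump of the ER, read 6573, 5717 and 3630 in contralateral 2, contralateral 3 and the unoperated gland and 2247 and 1389 in denervated 3 and 4. Both denervated glands were below all controls, 2.91-fold lower by the fitted means (-1.54 ± 0.35, adjusted p = 0.243). The water channel Aqp5 read 16470, 8356 and 12687 in the control glands and 14454 and 7925 in the denervated glands, with overlapping groups (-0.17 ± 0.33, 95% interval -0.91 to 0.57; 0.10 with median scaling). The sodium-potassium-chloride carrier Slc12a2 differed by 0.22 ± 0.29, 0.22 ± 0.53 and 1.55 ± 0.78 in its 3 probe sets, and the kinase Prkaca by -0.71 ± 0.39 and -0.06 ± 0.29.

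Nerve and Schwann cell genes were lower in 21 of 29 (median -0.48). At an unadjusted p below 0.05, 3 were lower and 1 higher, against 170 lower and 151 higher among all 3624 genes. The median turned to 0.01 over the 11 genes left by a filter at the 50th percentile, and was -0.22 with median scaling and -0.74 without contralateral 2. The synaptic vesicle genes Slc18a2 and Syp read 829, 644 and 1079 in the control glands and 353 and 98.1 in the denervated glands, and 707, 599 and 880 in the control glands and 295 and 117 in the denervated glands. In both genes denervated 4 was below the floor. Ngfr, the low-affinity neurotrophin receptor, gave opposite readings from its probe sets. A family-type probe set read 7578, 7810 and 6695 in contralateral 2, contralateral 3 and the unoperated gland and 2127 and 895 in denervated 3 and 4, a difference of -2.41 ± 0.37 (adjusted p = 0.186). The controls were close together and far above both denervated glands. The other, a conventional probe set, read 1487, 749 and 884 in the control glands and 1988 and 1143 in the denervated glands, a difference of 0.60 ± 0.50 with overlapping groups. Without denervated 3, denervated 4 is the only denervated gland, so no spread among denervated glands can be taken. The family-type probe set then differed by -3.04 and Cnpy2 by -2.78.

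Skeletal muscle genes were higher in denervated 3 and 4. Of 19 tested, 14 were higher (median 1.24). At an unadjusted p below 0.05, 8 were higher and 1 lower, against 151 and 170 of all 3624 genes. The median was 0.82 without denervated 4, and 0.47 over 26 genes when dim probe sets were kept. Skeletal actin Acta1 read 504, 348 and 215 in contralateral 2, contralateral 3 and the unoperated gland and 1770 and 5090 in denervated 3 and 4. Muscle creatine kinase Ckm read 170, 641 and 350 in the control glands and 2784 and 2856 in the denervated glands. All 5 defining muscle markers (Acta1, Ckm, Myh4, Tnnt3 and Myl1) were above every control in both denervated glands and summed to 8683 and 14564 there, against 1631 to 2819 in the controls. In the Scgb2a1-poor glands the denervated glands were not the higher ones: the same sum was 4648, 2003 and 1934 in denervated 1, 2 and 5 and 4630 and 8885 in contralateral 1 and the sham gland. The median of the 19 genes was -1.27 there. The part of muscle RNA in the other differences was not tested.

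The remaining lists are given by their counts and medians. Their calls stand beside 151 higher and 170 lower among all 3624 genes. Myoepithelial and smooth muscle genes were higher in 14 of 18 (median 0.25, 1 at an unadjusted p under 0.05) and duct keratin and junction genes in 11 of 13 (median 0.35, 2 higher and 1 lower); the 4 duct markers summed to 63795 to 83133 in the controls and to 101126 and 77513 in denervated 3 and 4. Ribosomal protein genes were higher in 23 of 30 (median 0.20) with 0 in either direction at an unadjusted p under 0.05. Genes of oxidative phosphorylation had a median of -0.16 (0.11 with median scaling) and were split, 3 higher and 3 lower. The mitochondrial carrier Slc25a4 read 3044, 2184 and 2326 in the control glands and 4282 and 4088 in the denervated glands. The complex I subunit Ndufs8 read 8095, 5980 and 6690 in the control glands and 4282 and 2883 in the denervated glands. In amino acid transport and synthesis (median -0.12, 0.15 with median scaling) 4 were lower and 1 higher, with the serine pathway enzyme Phgdh at 7679, 6579 and 12165 in the control glands and 4012 and 4023 in the denervated glands. Cytokine genes had a median of 0.10, with 1 of 32 higher, and growth factor genes a median of -0.36, with 0 of 37 in either direction. Medians were -0.16 for endothelial genes (0.10 with median scaling), 0.09 for adipocyte genes, -0.23 for blood genes (0.04), 0.07 for heat shock genes, -0.20 for cell cycle genes (0.07), 0.05 for apoptosis genes, -0.05 for annexin and S100 genes (0.22), 0.22 for clock genes and 0.0020 for translation factors. Leaving out 1 gland turned the sign for endothelial genes (0.18 without denervated 4), adipocyte genes (-0.17 without contralateral 2), cytokine genes (-0.20 without contralateral 3), and the heat shock, apoptosis, annexin and translation lists. Without contralateral 3 the medians were 0.15 for myoepithelial and 0.23 for duct genes, and without denervated 4 they were 0.09 for ribosomal and -0.22 for growth factor genes.

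Against the contralateral glands alone, in a fit that gave the unoperated gland its own class, 0 probe sets passed, 600 (9.81%) reached an unadjusted p under 0.05 (299, or 4.89%, higher and 301, or 4.92%, lower), and the smallest adjusted p was 0.239. The 5 genes first by p in each direction included C3 (1.48 ± 0.22), Apoe (1.16 ± 0.20), Cp (1.29 ± 0.23) and RT1-S3 (1.61 ± 0.31) on the high side, and P22k15 (-1.62 ± 0.22), Slc35b1 (-1.36 ± 0.22), Atp2a3 (-1.80 ± 0.33) and the peptidase Prep (-1.63 ± 0.25) on the low side. The medians of the ER chaperone and interferon lists were -0.94 and 1.02 in this comparison, beside -0.67 and 0.86 with the unoperated gland among the controls. The unoperated gland stood apart from the other 4 on the first principal component of the tested probe sets, at 58.9 against -25.0 to -2.10, and leaving it out gave 600 probe sets in place of 543.

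The 5 glands that were not kept share no array with these, so the same difference could be read in them. Their denervated glands were compared with contralateral 1 and the sham gland, where 0 probe sets passed and 403 (6.59%) reached an unadjusted p under 0.05 (229, or 3.74%, higher and 174, or 2.84%, lower). Of the 249 probe sets higher in denervated 3 and 4 at that threshold and without overlap, 237 were tested there, and 204 (86.1%) were higher there too, where 43.6% of all probe sets were. Of 269 lower, 246 were tested and 204 (82.9%) were lower. Over all 5531 probe sets tested in both sets the sign was the same in 63.4%, with Pearson's r of 0.313 and Spearman's rho of 0.317 across probe sets, which are not independent replicates.

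Of the 5531 probe sets tested in both sets, 95 (1.72%) reached an unadjusted p under 0.05 in each. Of these 95, 93 had the same direction, where 63.4% of all 5531 did. Of the 6118 probe sets tested in each set, 8.88% were under that p in the Scgb2a1-rich glands and 6.59% in the Scgb2a1-poor glands, in either direction. The 93 were 18.4% of the 506 under that p in the Scgb2a1-rich glands and 24.2% of the 384 in the Scgb2a1-poor glands. They include C3, Apoe, Dmbt1, Anxa1, Cst3, Clu, Lcn2, Psmb8 and Aif1 on the high side, and Dnase1, Smr3a, Smr3b, Rrbp1, Dad1, Slc35b1, P4hb, Calr and the amino acid carrier Slc7a5 on the low side. In the Scgb2a1-poor glands C3 differed by 2.45, Apoe by 2.42, Dmbt1 by 2.68, Dnase1 by -3.61, Smr3a by -3.35 and Rrbp1 by -1.78. In the C3 and Apoe probe sets given, denervated 1 lay among the controls. C3 read 3909, 32018 and 20831 in denervated 1, 2 and 5 and 4896 and 1298 in contralateral 1 and the sham gland. Apoe read 10067, 168400 and 100033 against 8119 and 13092. In Lcn2 too, denervated 1, at 7443, lay between contralateral 1 at 7578 and the sham gland at 148.9. For Anxa1, Cst3, Dad1, P4hb and Calr, the groups there overlapped in some probe sets and not in others. Groups did not overlap there in the Dmbt1, Dnase1, Smr3a and Rrbp1 probe sets given. In Dnase1, however, denervated 1 was far above denervated 2 and 5. It read 231646, 13577 and 15967 in denervated 1, 2 and 5 and 438126.5 and 465066 in contralateral 1 and the sham gland. Denervated 1 was thus also above all 5 Scgb2a1-rich glands in this gene. The 2 probe sets that opposed were Rheb, a GTPase of growth control (-2.01 ± 0.70 against 2.32), and 1 with no single gene name.

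**Figure D4:**
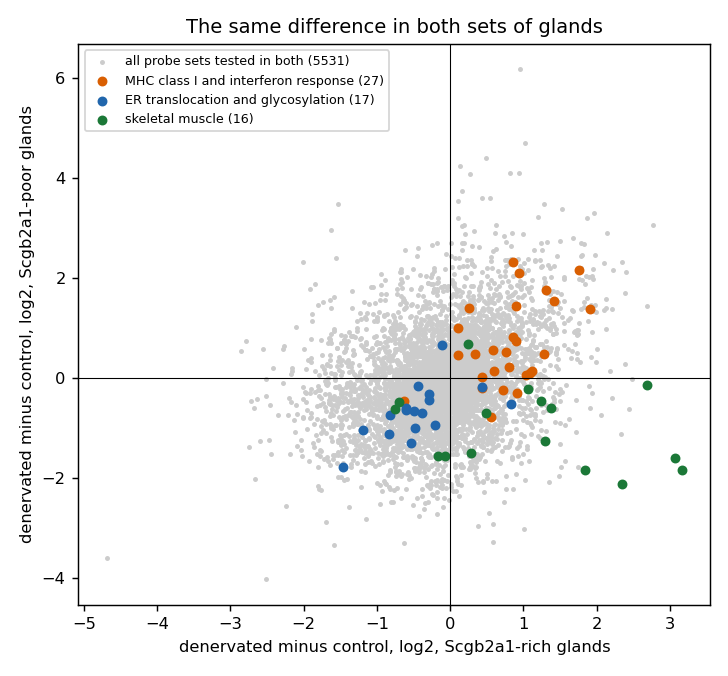
Each point is a probe set tested in both sets of glands: the denervated minus control difference (log2) in the Scgb2a1-rich glands on the horizontal axis and in the Scgb2a1-poor glands on the vertical axis. Interferon genes (orange) lie mostly to the upper right and ER translocation genes (blue) to the lower left, while the skeletal muscle genes furthest right (green) lie below zero on the vertical axis.

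The difference between these differences was tested over all 10 glands. It passed in 0 probe sets, 180 (2.94%) reached an unadjusted p under 0.05 (76, or 1.24%, higher and 104, or 1.7%, lower), and the smallest adjusted p was 0.826. First by p were Acta1 (5.01 ± 1.10, Scgb2a1-rich minus Scgb2a1-poor) and Ckm (4.68 ± 1.12), then Smr3a (1.76 ± 0.44). Smr3a was lower with denervation in both sets, and on the log2 scale more so in the Scgb2a1-poor glands. There it read 1975 and 1671 in contralateral 1 and the sham gland and 202.5, 33.6 and 177.9 in denervated 1, 2 and 5. Denervated 2 was below the floor, and all of these readings were far below the 51240 to 229314 of the Scgb2a1-rich glands. On the other side were smooth muscle Myl9 (-3.90 ± 0.78), which differed by 0.48 and 4.38, and the family-type Ngfr probe set (-2.60 ± 0.64), which differed by -2.41 and 0.19. This test depended on denervated 1 of the Scgb2a1-poor glands: without it 55 probe sets passed, 21 higher and 34 lower, led by Csap1 (-7.58 ± 0.57), Nupr1 (4.18 ± 0.42) and St6gal1 (3.39 ± 0.43). Without contralateral 1, which leaves the sham gland as the only Scgb2a1-poor control, Ndufb8 differed by -5.10.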

How the data were processed

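Total RNA of 10 rat lacrimal glands was measured on 1 Affymetrix array each. The authors deposited 1 linear intensity per probe set, already scaled. With 2% trimmed at each end, array means ran from 2505 to 2507. Software, detection calls and array dates were not given in the sources used here. That scaling was left as deposited. Lower intensities were raised to a floor of 156.2, the 20th percentile over all arrays, before log2 was taken, so glands at the floor cannot be ordered and a difference against them is too small. The 59 control probe sets were left out; of 8740 others, 6118 with a mean log2 intensity over the 5 glands above the 30th percentile were tested, with limma 3.58.1 in R 4.3.3 (lmFit, eBayes with a variance trend, two-sided, Benjamini-Hochberg adjustment over all probe sets tested). The median standard error of a difference was 0.54; the number of arrays limits the precision. Errors in the text are standard errors from these fits.

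Comparisons were denervated against the 3 controls (2 classes), denervated against contralateral glands (3 classes), the same difference in the other 5 glands, and the difference between the 2 sets (4 classes, 10 glands). The groups share 1 replicate number, so no block was fitted. Glands, members and the 35 gene lists were chosen with earlier results of these data known. Lists are described by counts and medians with 1 probe set per gene, the one with the highest mean. Scgb2a1, whose values chose the glands, was left out of lists and marker sums. Genes named are the 12 in each direction with the smallest unadjusted p for denervated against control, 5 for each of the contralateral comparison and the difference between sets, up to 3 per list, and fixed receptor and secretion genes; others were chosen after their values were seen. Symbols came from the platform annotation, updated through gene IDs to RefSeq GRCr8 (7006 probe sets with 1 symbol, 308 with several, 1426 not listed). Fits were tested on simulated data. Alternatives were the scaling, floor, filter, variance trend, pooled spread, 1 probe set per gene and leaving out each gland. Promoter windows were read from a RefSeq table of GRCr8; figures used matplotlib.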

Additional observations from a re-analysis of the deposited data

How the results depend on the processing

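No paired analysis was possible because denervated 3 and 4 and contralateral 2 and 3 share only replicate number 3. No change of scaling, floor, filter, variance trend, spread or probe set choice gave a probe set past the adjusted threshold in any of the 3 comparisons. Counts at an unadjusted p under 0.05 moved by over 1.5 times with the spread pooled over 10 arrays (282 for denervated against control and 267 against contralateral), with 1 probe set per gene, where fewer were tested (333, 365 and 94 for the difference between sets), and with no filter (280 for that difference). Leaving out each gland gave 0 to 2 probe sets past the threshold and 349 to 600 at an unadjusted p under 0.05 for denervated against control (2 without denervated 3, 349 without denervated 4). It gave 0 and 373 to 600 against contralateral (373 without contralateral 3, 377 without denervated 4), and 0 to 55 and 122 to 676 for the difference between sets (55 and 676 without denervated 1). Where an arm is left with 1 gland, that gland is assumed to vary like the others.

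Scaling each array to the same median turned the split of 260 higher and 283 lower into 461 and 111, and against contralateral 299 and 301 into 433 and 170; without the variance trend the first was 176 and 333. Signs turned with median scaling in Chrm1 (0.098), Aqp5 (0.095 and 0.042), Rab3d (0.098) and Prkaca (0.21), with quantile normalization in Chrm1 (0.056) and Chrm3 (-0.028), and with the lower floor in the dimmest Hspa5 probe set (-0.076). With 1 gland left out, differences ran from -0.46 to 0.13 in Chrm1, -0.60 to 0.26 and -0.70 to 0.25 in Aqp5, -0.11 to 0.18 in Chrm3, -1.30 to 0.10 and -0.25 to 1.24 in Vipr1, -0.22 to 0.55 in Slc12a2, -0.34 to 1.14 in Hspa5, -2.0 to 0.34 in Kdr and -0.16 to 0.043 in Prkaca. Of 144 named probe sets, 11 turned sign in some setting, as did 18 of 35 list medians, among them those of nerve (0.01) and T cell genes (0.0047) with the filter at the 50th percentile. The ER, interferon, class II, macrophage, complement, matrix, lipid, immediate early, antioxidant and skeletal muscle medians kept their sign in each setting run but not their size. Over all settings they ran from -0.94 to -0.40 for ER chaperones, -0.65 to -0.22 for ER translocation, 0.58 to 1.12 for interferon, 0.34 to 0.93 for class II, 0.58 to 0.89 for macrophage, 0.22 to 1.06 for complement, 0.12 to 0.57 for matrix, -0.49 to -0.20 for lipid, 0.41 to 0.79 for immediate early, 0.15 to 0.52 for antioxidant and 0.47 to 1.5 for skeletal muscle genes.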
